A study of Mus musculus with 48 samples.

Results

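The comparison described here set mouse embryonic stem cells (ESCs) treated for 24 h with V580, which is vitamin C (Vc) together with AM580, against control cells (Con) labelled with the same hour. Its members are the 2 V580 and the 2 Con libraries at 24 h, chosen by their labels, and they make up 4 of the 48 samples of the series. All 4 are bulk RNA-seq libraries of cells derived from C57BL/6 ESCs. The study worked with female ESCs that were kept on feeders in 2iL medium, left briefly in a bare dish so that feeders attached and could be left behind, and then plated on fibronectin in medium without 2iL. What the Con cells were plated in is not given in the sources used here for these libraries. The labels give them the time 24 h, while the study's text calls its RNA-seq controls day 0 cells, so changes that come with leaving 2iL and with replating cannot be told apart from those of Vc and AM580. The comparison addresses the first day of a protocol by which the study sought to turn ESCs into cells like the somatic cells of the embryonic gonad (GSCLCs). The labels do not say whether the 2 libraries of a group came from separate cultures, so every p-value below measures the spread between these libraries, which may be technical.

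AM580 is a synthetic retinoid that activates the retinoic acid receptor RARα. Retinoic acid receptors sit on DNA as dimers with RXR at repeats of a short half-site, and when a ligand binds they switch from repressing to activating nearby genes. The first genes to respond in ESCs include those that break down or store the ligand itself, and Hox genes follow along their clusters. Vc is a cofactor of the iron-dependent dioxygenases, among them the TET enzymes that remove DNA methylation, the histone demethylases and the prolyl hydroxylases that mark HIF for destruction. ESCs that leave 2iL pass from a naive to a formative state, in which Fgf5 and the de novo DNA methyltransferases come up.

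A direct repeat of the receptor half-site with 5 bases between the copies (DR5) is a known binding sequence of RAR with RXR. It was searched on both strands as a half-site, any 5 bases and a further half-site. The half-sites allowed in either place were the classical AGGTCA and its common variants AGTTCA (in both genes shown here), then GGTTCA (at the start of the Rarb repeat) and lastly GGGTCA. The windows were the RefSeq promoters (GRCm38.p6) of 300 bases around a start of each gene, with more than 1 window for some genes. The motif stood in 32 of 32851 windows (0.0974%), and in 3 of the 10875 windows of genes tested here. Of the genes that rose at least 2-fold, 39 had a promoter entry with 61 windows, and 1 of these windows, that of Cyp26a1, held the motif (1.64%). Among those that fell, none of the 28 windows of 18 genes did. The same half-sites with 1 base between them (DR1) stood in 24 and with 2 bases (DR2) in 10 of the windows of tested genes, and in 0 of the 61 and 0 of the 28. The 120 bases before a start of the RARβ gene Rarb and of Cyp26a1 are shown because both genes rose and both hold the repeat, which is in capitals. The Rarb stretch is chr14:16575477-16575596 on the minus strand, with the motif from -53 to -37 relative to that start. This start lies inside the gene as annotated (chr14:16430839-16819156), and the FPKM of the gene does not tell its starts apart. The Cyp26a1 stretch is chr19:37697688-37697807 on the plus strand, with the motif from -32 to -16 and read on the opposite strand.
Rarb: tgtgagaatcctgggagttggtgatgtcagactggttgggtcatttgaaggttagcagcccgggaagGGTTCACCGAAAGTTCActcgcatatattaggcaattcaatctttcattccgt
Cyp26a1: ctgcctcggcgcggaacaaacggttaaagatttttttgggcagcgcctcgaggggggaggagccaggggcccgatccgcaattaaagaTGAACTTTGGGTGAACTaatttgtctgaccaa
The third tested gene with the motif was Blvrb, a biliverdin reductase, which was lower in V580, with 18.9 and 20.1 FPKM in Con and 15.4 and 16.7 FPKM in V580 (log2 difference -0.27 ± 0.09, adjusted p = 0.0466). A match is a description of these letters and not a measured binding site.

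Few genes differed by 2-fold or more after 24 h of V580, and more of these were higher than lower. Of 10644 genes tested, 50 were at least 2-fold higher in V580 (0.47% of genes tested) and 24 were at least 2-fold lower (0.225%), or 0.695% in all. Both counts used limma on log2(FPKM + 1) with a Benjamini-Hochberg adjusted p below 0.05, in 1 model of the 16 libraries of Con, Vc, AM580 and V580 at 24 h and 48 h. FPKM is fragments per kilobase of transcript, scaled to the library's depth, and every log2 difference below is on the log2(FPKM + 1) scale, which understates the change of genes near or under 1 FPKM, and the value after ± is its standard error in that model (2 libraries a group). Without the fold threshold 1439 genes were higher (13.52%) and 1647 were lower (15.47%), 28.99% in all, which is the background for the counts in each list below. "Rose" and "fell" are used for genes past the adjusted p, with or without the 2-fold difference. The count of 74 genes rests on the offset of 1 FPKM: it was 126 with an offset of 0.5, 219 with 0.1 and 254 when the fragments were recovered from the FPKM and tested with limma-voom. With 2 libraries a group, an exact permutation test of 1 gene cannot go below p = 0.333, so the calls rest on the spread shared across genes.

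The libraries were close within a group. The root mean square difference over all genes tested was 0.13 on the log2 scale between the Con libraries and 0.105 between the V580 libraries, against 0.255 to 0.264 between a V580 and a Con library. The depth read from the steps of the low FPKM values was about 19700000 and 18800000 fragments in Con and 18600000 and 22300000 in V580. All 10 ESC markers were detected, and their summed level was 4813 and 5190 FPKM in Con and 4876 and 4885 FPKM in V580. Of 15 fibroblast markers, which feeder cells would carry, 13 could be tested, none rose and 8 fell, with a sum of 613 and 618 FPKM in Con and 500.0 and 478 FPKM in V580. The lowest of them, Lum and Twist2, were under 1 FPKM in Con, and Acta2 made up most of the sum with 411 and 430.0 FPKM in Con. Of the tested markers of other types, 3 of 6 trophoblast genes rose and 2 fell, 2 of 4 endothelial and blood genes rose and 1 fell, and 2 of 4 neural genes fell. Bulk libraries cannot tell fewer cells of a type from less RNA per cell.

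Genes that degrade and store retinoids included some of the largest rises, while the list as a whole moved both ways. 7 of the 17 tested members of this list rose and 4 fell, with a median log2 difference of 0.02 beside -0.01 over all genes tested. Cyp26a1, the enzyme that degrades retinoic acid, stood at 4.59 and 4.93 FPKM in Con and 22.4 and 21.5 FPKM in V580. The V580 mean was 4.62 times the Con mean (log2 difference 2.00 ± 0.09, adjusted p = 1.12e-09). Dhrs3, which turns retinaldehyde back into retinol, had 0.539 and 0.729 FPKM in Con and 4.03 and 4.40 FPKM in V580 (log2 difference 1.68 ± 0.08, adjusted p = 1.12e-09). For both of these genes both V580 libraries were far above both Con libraries.

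Of the receptors, Rarb was almost silent in Con. It had 0.0193 and 0.0304 FPKM in Con and 0.644 and 0.621 FPKM in V580, from 2 and 3 fragments in Con and 63 and 73 in V580. The ratio of the fragment rates was 25.6, with an exact 95% interval of 10.7 to 80 that covers counting error only. On the log2(FPKM + 1) scale this was a difference of 0.67 ± 0.07 (adjusted p = 6.51e-06), under the 2-fold mark on this scale. Rara, the receptor that AM580 binds, rose from 15.5 and 14.5 to 23.6 and 23.4 FPKM (log2 difference 0.61 ± 0.06). Rarg, which was more abundant than Rara, rose by less, with 105 and 106 FPKM in Con and 119.5 and 122 FPKM in V580 (log2 difference 0.20 ± 0.05, adjusted p = 0.00600). Rxra and Rxrb, the partners, did not pass the test, with log2 differences of 0.02 and 0.02.

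Stra6, the membrane receptor that takes up retinol, had 0.0873 and 0.0824 FPKM in Con and 0.684 and 0.507 FPKM in V580 and rose (adjusted p = 9.57e-05). The 4 members that fell make, carry or reduce retinoids. Aldh1a3, which makes retinoic acid from retinaldehyde, fell from 2.71 and 2.28 FPKM to 1.10 and 1.25 FPKM (log2 difference -0.68 ± 0.09, adjusted p = 3.51e-05). Crabp2, which carries retinoic acid to its receptor, had 4.96 and 4.92 FPKM in Con and 3.63 and 2.95 FPKM in V580 (log2 difference -0.48 ± 0.09, adjusted p = 0.00151), and Fabp5, which carries it to another receptor, and Rdh11, a retinaldehyde reductase, also fell, with log2 differences of -0.31 and -0.26. Aldh1a2, the main synthetic enzyme of the embryo, was under 1 FPKM in the 4 libraries and did not pass the test. Cyp26b1 was too low to be tested.

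**Figure D1:**
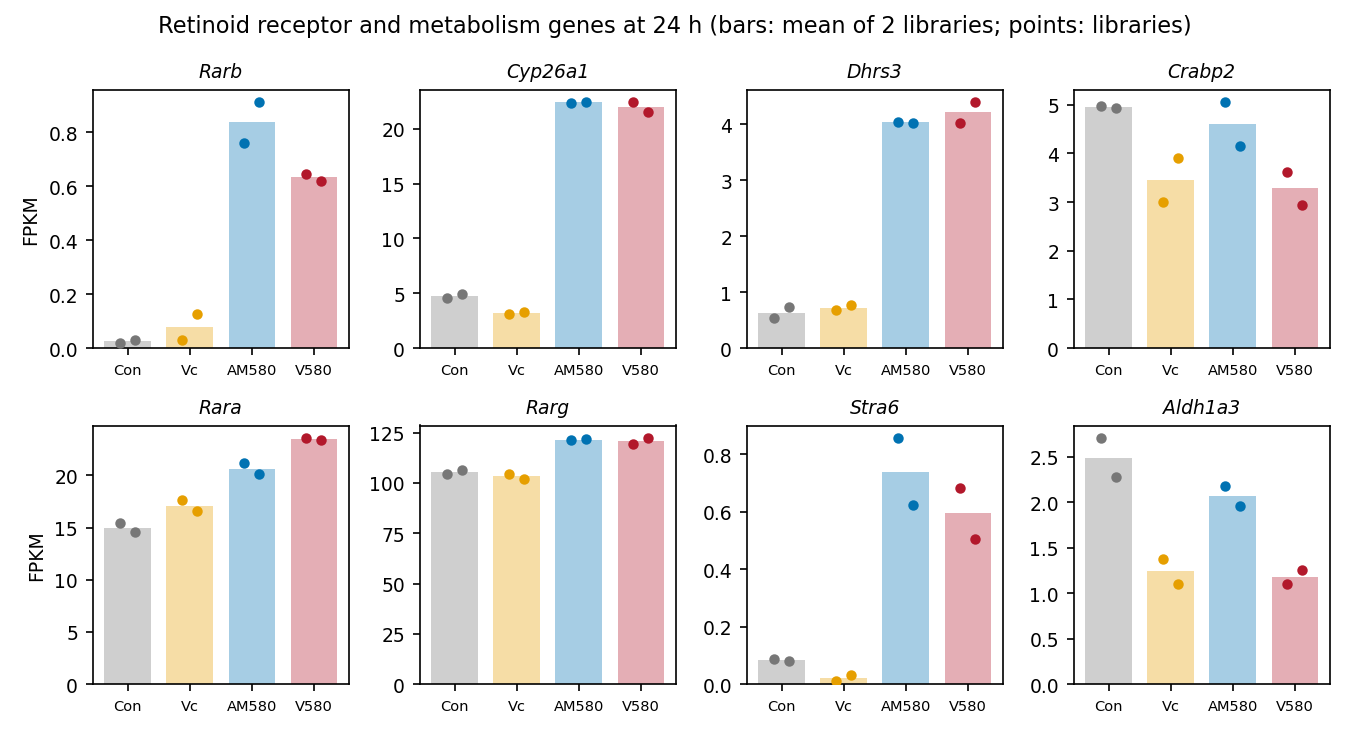
Level in FPKM (vertical axes from 0) of 8 retinoid genes in the 2 libraries each of Con, Vc, AM580 and V580 at 24 h; bars are means of 2 libraries and points are libraries. Rarb, Cyp26a1, Dhrs3 and Stra6 are low in Con and Vc and high in AM580 and V580, while Aldh1a3 is low in Vc and V580.

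Among textbook retinoic acid targets, 12 of 18 tested rose and 2 fell, with a median log2 difference of 0.54. Aqp3, a channel for water and glycerol, had the largest rise of all genes tested on the log2(FPKM + 1) scale, with 1.45 and 1.20 FPKM in Con and 11 and 11.6 FPKM in V580 (log2 difference 2.41 ± 0.09, adjusted p = 1.08e-10). With limma-voom on recovered fragments the log2 difference of Rarb was larger, at 4.48 against 3.13 for Aqp3. Nrip1, a corepressor of nuclear receptors, had 2.34 and 1.75 FPKM in Con and 5.59 and 5.50 FPKM in V580 (log2 difference 1.11 ± 0.08, adjusted p = 1.81e-07). Meis1 and Meis2, homeobox partners of Hox proteins, rose by smaller amounts, with log2 differences of 0.57 ± 0.06 and 0.52 ± 0.07, and so did Bhlhe40, a transcriptional repressor, with 0.40 ± 0.06. The 4 targets that did not pass the test were Hoxb3, Zfp703, Gbx2 and Tgm2. Crabp2 was among the 2 that fell. Stra8 was not analysed here.

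Hox genes set position along the body axis. Of 13 tested Hox genes 6 rose, 7 did not pass the test and none fell (4 rose with no filter on low values or with limma-voom), with a median log2 difference of 0.20. Hoxb4 had 0.733 and 0.935 FPKM in Con and 2.92 and 2.72 FPKM in V580 (log2 difference 1.06 ± 0.09, adjusted p = 3.39e-07). It was the only one past 2-fold on the log2(FPKM + 1) scale. Hoxb5 had 0.219 and 0.134 FPKM in Con and 1.10 and 0.980 FPKM in V580 (log2 difference 0.79 ± 0.08, adjusted p = 4.59e-06), and Hoxa3 had 0.0846 and 0.160 FPKM in Con and 0.564 and 0.513 FPKM in V580 (log2 difference 0.46 ± 0.07, adjusted p = 2.77e-04). The rises of Hoxb8 (0.38), Hoxb6 (0.26) and Hoxc8 (0.25) were smaller, and Hoxb9, further to the 5' side, had 2.53 and 2.09 FPKM in Con and 1.90 and 2.00 FPKM in V580 and did not pass the test. No tested Hox gene was above the Hoxb4 level in V580.

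The largest rises were taken as the 10 called genes with the largest log2 difference. They had to reach 5 FPKM in the higher group and have no overlap between the groups. Cyp26a1 and Aqp3 were among them. Themis2, a signalling protein known from immune cells, had 1.52 and 1.73 FPKM in Con and 10.6 and 11.2 FPKM in V580 (log2 difference 2.18 ± 0.09, adjusted p = 6.49e-10). Pmp22, a membrane protein of myelin that is also linked to growth arrest, had 7.67 and 7.41 FPKM in Con and 32 and 31.7 FPKM in V580 (log2 difference 1.94 ± 0.06, adjusted p = 2.28e-11). Tle6, a Groucho-family protein of the early embryo, had 1.55 and 1.42 FPKM in Con and 7.31 and 7.39 FPKM in V580 (log2 difference 1.75 ± 0.07, adjusted p = 4.17e-10). The V580 means of these 3 genes were 6.69, 4.23 and 4.96 times the Con means.

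Mmp9, a matrix-degrading gelatinase, had 5.85 and 6.34 FPKM in Con and 20.8 and 22 FPKM in V580 (log2 difference 1.66 ± 0.06, adjusted p = 1.80e-10). Ly6a (Sca-1), a surface antigen, had 4.43 and 4.74 FPKM in Con and 17 and 18.4 FPKM in V580 (log2 difference 1.74 ± 0.10, adjusted p = 1.43e-08). Prtg, a receptor-like surface protein of the embryo, had 1.94 and 1.74 FPKM in Con and 7.27 and 7.14 FPKM in V580 (log2 difference 1.53 ± 0.08, adjusted p = 5.99e-09). Aard was the most abundant of the 9 shown here, with 23.4 and 22.1 FPKM in Con and 70 and 68.5 FPKM in V580 (log2 difference 1.57 ± 0.06, adjusted p = 4.17e-10). These rises had no overlap between the groups because the rule required it, and 63.4% of all genes tested had none. Erf, an ETS-family repressor downstream of ERK, was already abundant and rose from 46.5 and 46.6 FPKM to 120.0 and 126 FPKM (log2 difference 1.38 ± 0.04, adjusted p = 2.28e-11), and Cntfr, the receptor for ciliary neurotrophic factor, from 28.5 and 28.4 FPKM to 64.7 and 65.1 FPKM (log2 difference 1.16 ± 0.06, adjusted p = 1.97e-09). These last 2 were chosen after their values were seen.

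The 10 largest falls by the same rule included a growth regulator, a kinase and a lactate exporter. Enpp2 (autotaxin), which makes lysophosphatidic acid, fell from 6.76 and 7.46 FPKM to 0.485 and 0.318 FPKM. This was the largest fall of all genes tested on the log2(FPKM + 1) scale (log2 difference -2.53 ± 0.09, adjusted p = 1.05e-10). Mycn, a Myc-family growth regulator, fell from 69.1 and 66.5 FPKM to 20.9 and 20.5 FPKM, so that Con held 3.28 times the V580 level (log2 difference -1.66 ± 0.06, adjusted p = 1.46e-10). Slc16a3, the lactate exporter MCT4, had 59.8 and 64.6 FPKM in Con and 19.8 and 19.7 FPKM in V580 (log2 difference -1.61 ± 0.05, adjusted p = 2.99e-11). Pim2, a survival kinase, had 70.1 and 73.8 FPKM in Con and 25.3 and 24.8 FPKM in V580 (log2 difference -1.49 ± 0.04, adjusted p = 2.28e-11).

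Lef1, a transcription factor of the Wnt pathway, had 5.71 and 5.72 FPKM in Con and 1.58 and 1.44 FPKM in V580 (log2 difference -1.42 ± 0.08, adjusted p = 5.99e-09). Calca, the gene of calcitonin and CGRP, fell with a log2 difference of -1.21 ± 0.08, and Crct1 with -1.20 ± 0.14. Peg3, an imprinted zinc-finger gene, had 74.3 and 64.4 FPKM in Con and 31 and 28.4 FPKM in V580 (log2 difference -1.19 ± 0.08, adjusted p = 8.54e-08), and Cav1, the scaffold of caveolae, had 27.7 and 27.7 FPKM in Con and 11.9 and 12.4 FPKM in V580 (log2 difference -1.12 ± 0.06, adjusted p = 7.40e-09). Cav1 is also made by fibroblasts, whose marker sum fell in the same libraries, and the part of that in its fall was not tested.

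**Figure D2:**
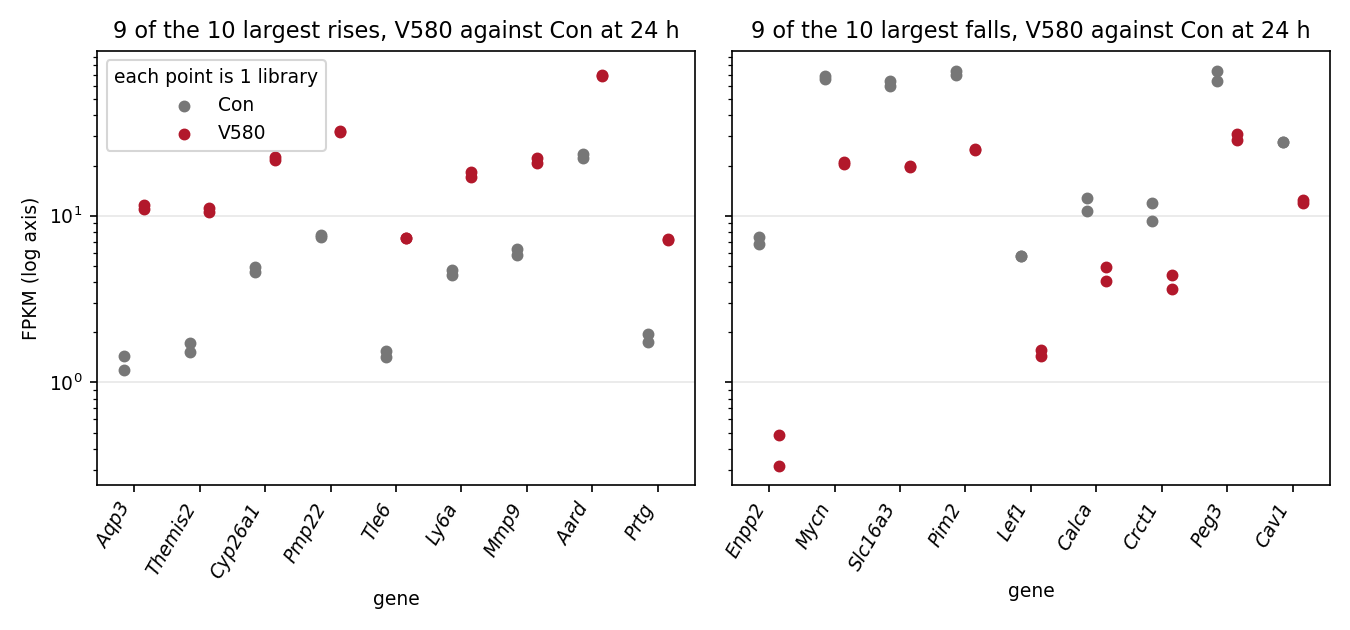
Level in FPKM (log axis) of 9 of the 10 largest rises and 9 of the 10 largest falls among called genes of at least 5 FPKM in the higher group; each point is 1 library of Con or V580 at 24 h. In every gene the 2 V580 points lie apart from the 2 Con points, which the rule of choice required. The V580 levels run from Enpp2 at 0.485 and 0.318 FPKM to Aard at 70.0 and 68.5 FPKM.

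Pluripotency did not move as 1 block. Among naive genes 6 of 18 rose and 6 fell, with a median of -0.02. Nanog, a core factor of the naive state, had 32.5 and 31.9 FPKM in Con and 47.1 and 50.2 FPKM in V580 (log2 difference 0.58 ± 0.05, adjusted p = 5.23e-07). Tfcp2l1, a LIF-responsive factor, had 12.3 and 10.3 FPKM in Con and 20.3 and 20.1 FPKM in V580 (log2 difference 0.79 ± 0.10, adjusted p = 2.40e-05), and Tbx3 had 3.36 and 2.97 FPKM in Con and 5.87 and 6.03 FPKM in V580 (log2 difference 0.74 ± 0.07, adjusted p = 9.09e-07). The falling naive genes included the transcription factor Klf2, with 32.7 and 30.6 FPKM in Con and 20.9 and 21.7 FPKM in V580 (log2 difference -0.55 ± 0.08, adjusted p = 1.02e-04), and Tcl1, a coactivator of Akt, with a log2 difference of -0.56 ± 0.11.

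Of the 9 core pluripotency genes none rose and 3 fell, by small amounts. Pou5f1 (Oct4) had 692 and 758 FPKM in Con and 597 and 590.3 FPKM in V580 (log2 difference -0.29 ± 0.05, adjusted p = 0.00116). Sox2, Sall4 and Lin28a did not pass the test, with log2 differences of 0.09, 0.04 and 0.004. The other 2 that fell were Trim28 (-0.27), a corepressor, and L1td1 (-0.20), which was not called without V580 replicate 2 (-0.16, adjusted p = 0.0588).

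Formative and primed genes were lower. Of 8 tested, 6 fell and 1 rose, with a median of -0.51. Fgf5, the usual marker of the formative state, had 1.85 and 2.47 FPKM in Con and 0.151 and 0.197 FPKM in V580 (log2 difference -1.42 ± 0.09, adjusted p = 2.43e-08). Dnmt3b, a de novo DNA methyltransferase, had 151 and 145 FPKM in Con and 104 and 105 FPKM in V580 (log2 difference -0.50 ± 0.04, adjusted p = 2.42e-07), and Dnmt3l, its cofactor, had 686 and 732 FPKM in Con and 486 and 489 FPKM in V580 (log2 difference -0.54 ± 0.06, adjusted p = 9.68e-06). Sox11 and Zic5 also fell, with log2 differences of -0.52 ± 0.07 and -0.44 ± 0.07. Dnmt3a rose slightly (0.12 ± 0.04).

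Gata4 and Foxl2, which mark the intended cell type, did not rise at 24 h. Gata4, a transcription factor of the early gonad, had 0.300 and 0.287 FPKM in Con and 0.138 and 0.206 FPKM in V580, from 23 and 21 fragments in Con and 10 and 18 in V580 (log2 difference -0.14 ± 0.10, adjusted p = 0.332). The ratio of its fragment rates, V580 over Con, was 0.598, with an exact 95% interval of 0.358 to 0.982 that covers counting error only. Foxl2, the factor of the female gonad, had 8 and 4 fragments in Con and 7 and 6 in V580 and was too low for the test. The ratio of its fragment rates was 1.02, with an exact 95% interval of 0.428 to 2.44. In the V580 libraries of later days (3 libraries a day) Gata4 stood at 4.94 ± 0.255 FPKM (SD) on day 4 and 46.1 ± 0.382 FPKM on day 10, and Foxl2 at 1.41 ± 0.0912 and 4.94 ± 0.679 FPKM.

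Of the 25 listed genes of gonadal somatic cells 22 were in the table and 11 could be tested, of which none rose and 6 fell, with a median of -0.17. Fst, the activin antagonist follistatin, had 4.80 and 5.18 FPKM in Con and 2.19 and 2.20 FPKM in V580 (log2 difference -0.90 ± 0.07, adjusted p = 2.53e-07). Wt1, a factor of the gonadal ridge, had 8.87 and 8.46 FPKM in Con and 6.29 and 6.34 FPKM in V580 (log2 difference -0.40 ± 0.06, adjusted p = 2.15e-04), and Cd63, the surface protein that the study later used for sorting, fell from 47 and 52.9 FPKM to 39.8 and 40.7 FPKM (log2 difference -0.30 ± 0.06, adjusted p = 0.00123). The fibroblast marker sum fell in the same libraries, and its part in these falls was not tested. Nr5a1, a defining factor of steroidogenic gonadal cells, was at 0 in the 4 libraries. For the intermediate mesoderm and mesonephros, 6 of 14 genes in the table could be tested. Gata3 rose (0.36), and Sall1 (-0.62) and Wt1 fell.

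Of 23 tested extraembryonic endoderm genes 4 rose and 3 fell, with a median of -0.02. Over all genes tested 13.52% rose and 15.47% fell, so this list was near the background. Gata6, the factor that specifies primitive endoderm, had 0.400 and 0.343 FPKM in Con and 1.58 and 1.72 FPKM in V580 (log2 difference 0.95 ± 0.09, adjusted p = 1.57e-06). Pth1r, a receptor of parietal endoderm, had 0.852 and 0.784 FPKM in Con and 1.88 and 2.13 FPKM in V580 (log2 difference 0.72 ± 0.08, adjusted p = 1.19e-05), and Thbd (thrombomodulin) rose with a log2 difference of 0.66 ± 0.08 and Sox7 with 0.34 ± 0.08. Sox17 and Foxa2, other endoderm factors, did not pass the test. The abundant basement membrane gene Lamc1 was at 80.2 and 66.7 FPKM in Con and 78.6 and 74.7 FPKM in V580. Of 5 tested genes of the primitive streak and early mesoderm, Eomes (0.22) and Mesp2 (0.66) rose and none fell. Eomes was not called without Con replicate 2, V580 replicate 1 or V580 replicate 2 (log2 differences of 0.14, 0.22 and 0.21), and Mesp2 was not called without V580 replicate 2 (0.46, adjusted p = 0.0512).

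In the BMP pathway, which acts through Smad proteins, 3 of 21 tested genes rose and 6 fell. Smad6, an inhibitory Smad, rose from 2.79 and 3.21 FPKM to 5.76 and 6.19 FPKM (log2 difference 0.80 ± 0.07, adjusted p = 1.01e-06), and the ligand Bmp4 had 9.30 and 10 FPKM in Con and 13.4 and 13.7 FPKM in V580 (log2 difference 0.45 ± 0.10, adjusted p = 0.00320). The antagonist Nog (noggin) had 2.10 and 2.67 FPKM in Con and 0.667 and 0.475 FPKM in V580 (log2 difference -1.11 ± 0.12, adjusted p = 6.96e-06) and the homeobox target Msx1 had 3.38 and 3.96 FPKM in Con and 0.922 and 0.751 FPKM in V580 (log2 difference -1.35 ± 0.10, adjusted p = 9.94e-08). Targets of the pathway differed in direction: Id3 rose (0.38), and Id2 (-0.56) and Id1 (-0.17) fell.

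Among Wnt ligands, receptors and antagonists 5 of 26 rose and 5 fell. Porcn, which attaches the lipid that Wnt proteins need for secretion, had 6.41 and 6.72 FPKM in Con and 13.8 and 14.8 FPKM in V580 (log2 difference 1.02 ± 0.10, adjusted p = 1.73e-06). The antagonist Sfrp1 had 10.9 and 10.1 FPKM in Con and 5.28 and 4.92 FPKM in V580 (log2 difference -0.91 ± 0.06, adjusted p = 6.21e-08), and the ligands Wnt6 (-0.59) and Wnt5a (-0.41) fell. Of 12 canonical Wnt targets, Lef1 and Ccnd1 (-0.23) fell and Tcf7 (0.15) and Myc (0.16) rose. The last 2 calls were thin: without 1 library Tcf7 was between 0.12 and 0.17 and not called in any of the 4 cases, and Myc was not called without Con replicate 1 (0.14), V580 replicate 1 (0.14) or V580 replicate 2 (0.18). Axin2, the usual readout, had 7.51 and 6.91 FPKM in Con and 8.53 and 8.06 FPKM in V580 and was not called (adjusted p = 0.0657), though it passed with median ratio scaling and with limma-voom on recovered fragments.

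In the FGF and MAPK list 10 of 20 rose and 5 fell, with a median of 0.17. The ones that rose were mostly feedback genes of ERK: Dusp6, an ERK phosphatase, had 77.6 and 86.3 FPKM in Con and 116 and 114 FPKM in V580 (log2 difference 0.49 ± 0.05, adjusted p = 1.85e-06), Spry4, an inhibitor of receptor signalling, had 20.4 and 21.1 FPKM in Con and 29.8 and 28.1 FPKM in V580 (log2 difference 0.46 ± 0.05, adjusted p = 9.96e-06), and the ETS factor Etv4 had 99.5 and 98.9 FPKM in Con and 144 and 144 FPKM in V580 (log2 difference 0.54 ± 0.05, adjusted p = 2.25e-06). Fgfr4, a receptor, had 1.22 and 0.813 FPKM in Con and 3.01 and 2.82 FPKM in V580 and the largest rise of the list (log2 difference 0.96 ± 0.10, adjusted p = 4.47e-06). Of the 8 tested Spry, Spred and Dusp genes of the list 7 rose and 1, Dusp4, fell. The ligands Fgf4 and Fgf5 fell, Fgf4 from 125 and 126 FPKM to 93.1 and 91.3 FPKM (log2 difference -0.44 ± 0.05, adjusted p = 9.67e-06), as did the early response gene Egr1 (-0.53).

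In the Nodal pathway 1 of 12 rose (Smad2, 0.32) and 4 fell. Lefty1, the antagonist of Nodal, had 3.53 and 3.46 FPKM in Con and 2.21 and 2.01 FPKM in V580 (log2 difference -0.53 ± 0.04, adjusted p = 4.69e-07), and the coreceptor Tdgf1 (Cripto) had 367 and 385 FPKM in Con and 261 and 272 FPKM in V580 (log2 difference -0.50 ± 0.04, adjusted p = 6.24e-07). Of 24 Hippo genes 6 rose and 5 fell, with log2 differences between -0.40 for Amot and 0.31 for Amotl1, both scaffold proteins that bind Yap. Amotl1 was not called without Con replicate 2 (0.21, adjusted p = 0.105).

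Germline genes that are known to be silenced by promoter methylation were mostly higher. Of 9 tested 6 rose and 1 fell, with a median of 0.52. Dazl, an RNA-binding protein of germ cells, had 12.2 and 12.2 FPKM in Con and 26.6 and 26.7 FPKM in V580 (log2 difference 1.06 ± 0.07, adjusted p = 3.21e-08). Sycp3, a protein of the synaptonemal complex, had 1.93 and 1.48 FPKM in Con and 3.45 and 4.28 FPKM in V580 (log2 difference 0.85 ± 0.12, adjusted p = 1.04e-04), and Piwil2, a piRNA-binding protein, had 14.6 and 14.6 FPKM in Con and 21.4 and 22.2 FPKM in V580 (log2 difference 0.55 ± 0.06, adjusted p = 9.10e-06). Ddx4 (Vasa) rose slightly (0.16 ± 0.05), and the 1 that fell was Dnmt3l. The medians of the same list against Con were 0.16 with Vc and 0.18 with AM580, comparisons that share the Con libraries.

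Among meiosis genes 5 of 13 rose and none fell (3 rose with a filter of 5 FPKM and 4 with the 8 libraries at 24 h alone). Smc1b, the meiotic cohesin subunit, had 1.12 and 1.11 FPKM in Con and 3.23 and 3.11 FPKM in V580 (log2 difference 0.98 ± 0.07, adjusted p = 1.31e-07), and Dmc1, the meiotic recombinase, had 3.80 and 4.27 FPKM in Con and 6.24 and 5.09 FPKM in V580 (log2 difference 0.40 ± 0.10, adjusted p = 0.00802). Dmc1 was not called without Con replicate 1 or V580 replicate 1 (log2 differences of 0.33 and 0.28). The others that rose were Sycp3, Smc3 and Tex15. With the 8 libraries at 24 h alone Tex15 was not called (0.33, adjusted p = 0.0535). Its log2 difference was 0.30 without Con replicate 2 and 0.27 without V580 replicate 1. Of 13 enzymes of DNA methylation, Tet2, which oxidises methylcytosine, rose from 3.84 and 2.85 FPKM to 5.40 and 5.35 FPKM (log2 difference 0.56 ± 0.10, adjusted p = 8.51e-04), Uhrf1 (0.20) and Dnmt3a also rose, and Dnmt3b and Dnmt3l fell. Of the 6 tested genes of the 2-cell-like state 3 rose, namely Zfp809, a zinc-finger repressor of retroviral elements (9.90 and 9.10 FPKM in Con and 20.6 and 19.3 FPKM in V580), Zscan4f (0.67) and Gm20767 (0.56), which was not called without Con replicate 1 (0.46) or V580 replicate 1 (0.38). The Zscan4 genes are near-identical copies, so reads may be split among them and their values are uncertain.

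Glycolysis and HIF target genes fell more often than they rose. Of 34 tested 15 fell and 5 rose, with a median of -0.18. Besides Slc16a3, Ldha, the enzyme that makes lactate, had 339 and 353 FPKM in Con and 215 and 213 FPKM in V580 (log2 difference -0.69 ± 0.04, adjusted p = 2.67e-08), Pkm (pyruvate kinase) had 841 and 872 FPKM in Con and 564 and 559.6 FPKM in V580 (log2 difference -0.61 ± 0.04, adjusted p = 8.48e-08), and Pgk1 (phosphoglycerate kinase) had 317 and 336 FPKM in Con and 224 and 215 FPKM in V580 (log2 difference -0.57 ± 0.05, adjusted p = 2.66e-07). Egln3, a HIF prolyl hydroxylase that is itself induced by HIF, had 28.6 and 28 FPKM in Con and 13.6 and 13.6 FPKM in V580 (log2 difference -1.0 ± 0.05, adjusted p = 1.92e-09). Slc2a3 and Slc2a1, glucose transporters that also carry oxidised Vc, rose with log2 differences of 0.55 ± 0.04 and 0.30 ± 0.04, and Hk2 (hexokinase) with 0.35 ± 0.06. Gapdh was erratic between replicates, with 51.1 and 69.5 FPKM in Con and 65.3 and 4.82 FPKM in V580, and was not called.

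Of 32 Vc transporters and Vc-dependent dioxygenases 5 rose and 7 fell. The histone demethylases Kdm6b (0.59), Kdm3b (0.58) and Kdm3a (0.42) rose and Kdm4c fell from 24.5 and 24.5 FPKM to 17.8 and 17.2 FPKM (log2 difference -0.46 ± 0.04, adjusted p = 1.62e-06). P4ha1, a subunit of collagen prolyl hydroxylase, had 11.3 and 11.3 FPKM in Con and 7.03 and 7.22 FPKM in V580 (log2 difference -0.60 ± 0.08, adjusted p = 3.13e-05), and the Vc transporter Slc23a2 fell (-0.40). Of 18 collagens 1 rose and 6 fell, led by Col6a3 (-0.75 ± 0.13) and Col5a1 (-0.64 ± 0.07). The rise, that of Col13a1 (0.26), was not called without Con replicate 2 (0.23, adjusted p = 0.0769) or V580 replicate 1 (0.21, adjusted p = 0.103). Col1a1 and Col5a1 are also fibroblast markers here, and the fibroblast marker sum fell from 613 and 618 to 500.0 and 478 FPKM in the same libraries. The part of that in the collagen falls was not tested.

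In the list of p53 targets 12 of 16 fell and 2 rose, with a median of -0.28. Pmaip1 (Noxa), a killer protein of the Bcl2 family, had 52.7 and 54 FPKM in Con and 32.3 and 32.7 FPKM in V580 (log2 difference -0.70 ± 0.05, adjusted p = 7.75e-08), and the cell cycle inhibitor Cdkn1a (p21) had 45.1 and 47.1 FPKM in Con and 31.3 and 31.4 FPKM in V580 (log2 difference -0.54 ± 0.05, adjusted p = 2.51e-06). Sesn1, a stress-responsive sestrin, rose from 3.35 and 3.56 FPKM to 6.55 and 6.42 FPKM (log2 difference 0.75 ± 0.07, adjusted p = 8.56e-07). Of 19 genes of the integrated stress response and amino acid supply 8 fell and 3 rose, with the amino acid transporter Slc7a3 at 90.4 and 93.2 FPKM in Con and 58 and 56.5 FPKM in V580 (log2 difference -0.67 ± 0.04, adjusted p = 1.64e-08) and the factor Atf4 at a log2 difference of -0.34 ± 0.06. Of 23 cholesterol genes 2 rose, Pmvk (0.26) and Ebp (0.29), and 3 fell, Cyp51 (-0.12), Msmo1 (-0.22) and Stard4 (-0.29). The 5 calls became 3 with no filter on low values or with the 8 libraries at 24 h alone. Pmvk and Msmo1 were not called with any 1 of the 4 libraries left out (adjusted p up to 0.193 and 0.18). Ebp was not called without Con replicate 1, Con replicate 2 or V580 replicate 2 (adjusted p = 0.0698, 0.0746 and 0.203), nor Stard4 without V580 replicate 2 (0.0636).

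**Figure D3:**
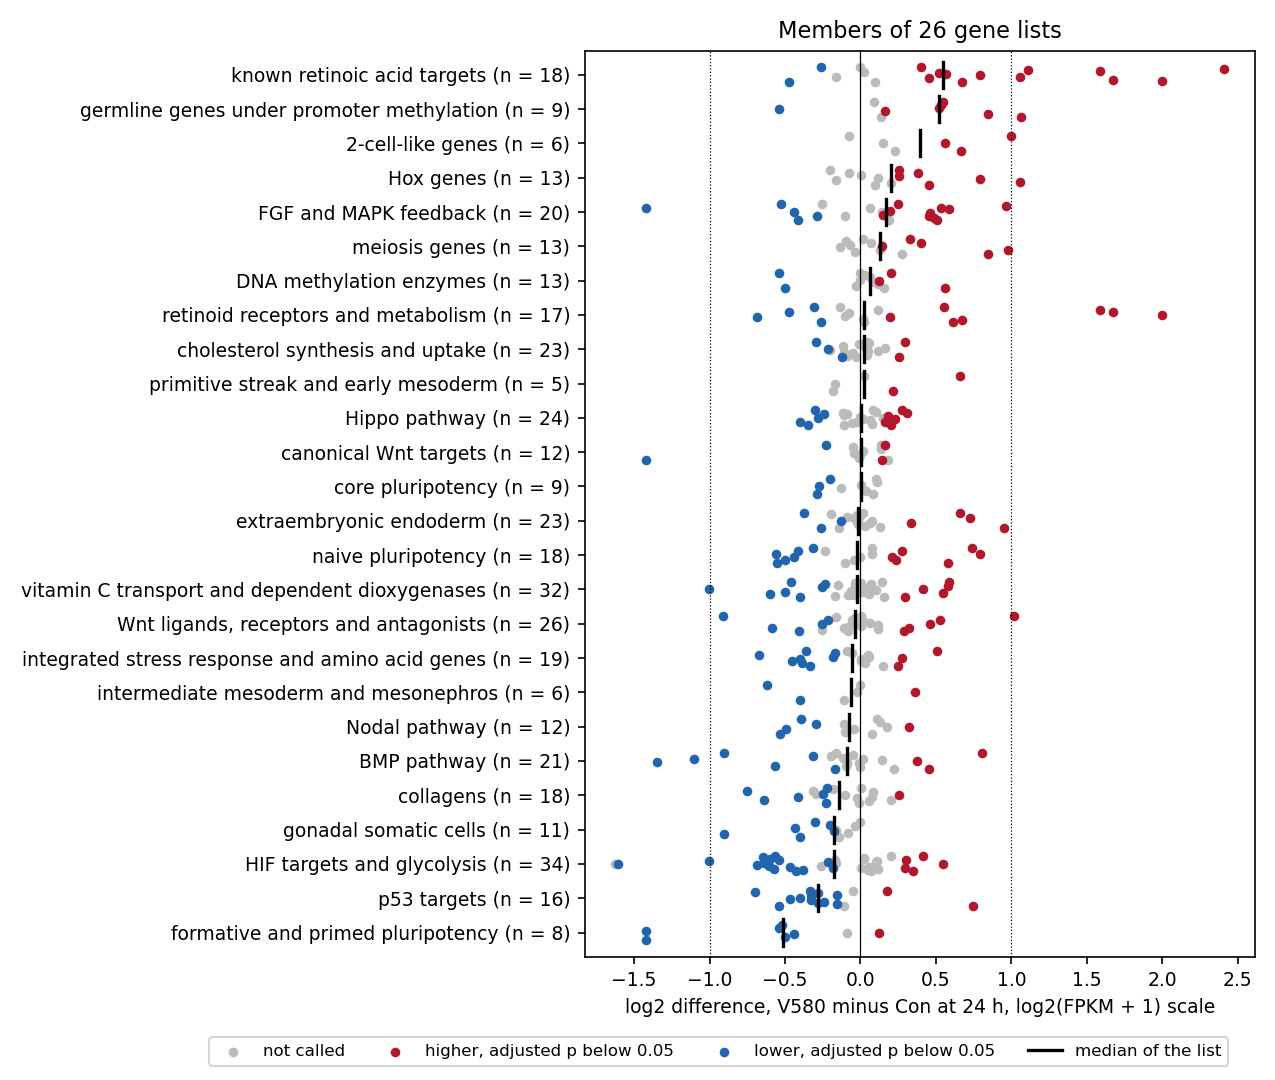
Log2 difference between V580 and Con at 24 h on the log2(FPKM + 1) scale (horizontal axis) for each tested member of 26 gene lists, sorted by the list's median (black bar); red points rose, blue points fell and grey points did not pass the adjusted p, and dotted lines mark 2-fold. Retinoic acid targets have the highest median at 0.54 and formative and primed genes the lowest at -0.51.

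Libraries of each compound alone at 24 h were also made. Their comparisons share libraries with V580 against Con, so their values stand side by side and no overlap is given. At 24 h AM580 alone called 43 genes at 2-fold against Con (0.404%) and Vc alone 9 (0.0846%).

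Several retinoid genes were close to their level with AM580 alone. Cyp26a1 had 22.4 and 22.4 FPKM in AM580 and 3.12 and 3.29 FPKM in Vc, and V580 minus AM580 was -0.03 ± 0.09 (adjusted p = 0.884). Dhrs3 differed from AM580 by 0.05 ± 0.08 (adjusted p = 0.731). Hoxb4 was lower in V580 than in AM580, at 3.96 and 4.72 FPKM in AM580 (log2 difference -0.48 ± 0.09, adjusted p = 0.00165).

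Ly6a, Rnf125, Mep1b and Kng2 were at least 2-fold above AM580, and all 4 were also high with Vc alone. Ly6a had 20.8 and 22.6 FPKM in Vc and 4.76 and 4.59 FPKM in AM580, and V580 was above AM580 (log2 difference 1.72 ± 0.10, adjusted p = 1.25e-07). Rnf125, a ubiquitin ligase, had 5.84 and 7.02 FPKM in Vc, 1.14 and 1.38 FPKM in AM580 and 6.50 and 6.61 FPKM in V580. Mep1b, a metalloprotease, had 2.71 and 3.06 FPKM in Vc, 0.507 and 0.709 FPKM in AM580 and 4.43 and 4.29 FPKM in V580. Kng2, a kininogen, had 2.16 and 2.05 FPKM in Vc, 0.347 and 0.490 FPKM in AM580 and 2.21 and 2.64 FPKM in V580. The genes at least 2-fold below AM580 were Lefty1, Msx1 and Cdkn1c, an imprinted inhibitor of the cell cycle. These 7 genes (0.0658% of genes tested) were all that passed 2-fold between V580 and AM580, and without the fold threshold 1570 genes differed (14.8%). The split of 4 higher (0.0376%) and 3 lower (0.0282%) rests on the scale, since an offset of 0.1 gave 15 higher and 38 lower and limma-voom on recovered fragments gave 16 and 54.

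Against Vc alone V580 differed at 2-fold in 39 genes, 32 higher (0.301%) and 7 lower (0.0658%), 0.366% in all. The largest difference on the log2(FPKM + 1) scale was again Aqp3 (log2 difference 2.48 ± 0.09, adjusted p = 1.07e-10). Dazl had 12.2 and 12.2 FPKM in Con, 17 and 14.8 FPKM in AM580, 21.4 and 22.2 FPKM in Vc and 26.6 and 26.7 FPKM in V580. V580 was above both single compounds, by 0.71 ± 0.07 over AM580 and 0.28 ± 0.07 over Vc (adjusted p = 1.31e-05 and 0.0109). Lef1 had 5.71 and 5.72 FPKM in Con, 4.11 and 3.56 FPKM in Vc, 2.65 and 2.82 FPKM in AM580 and 1.58 and 1.44 FPKM in V580, the lowest of the 4 groups. For Egln3, V580 minus Vc was -0.20 ± 0.05 (adjusted p = 0.00945).

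Whether the combination differed from the sum of the single compounds on the log2 scale was tested by the interaction. It passed in 4 genes (0.0376%), all lower than the sum, and 472 genes had an unadjusted p below 0.05 (4.43%). Lefty1 had 10 and 9.44 FPKM in AM580, 1.01 and 1.07 FPKM in Vc and 2.21 and 2.01 FPKM in V580 (interaction -0.65 ± 0.06, adjusted p = 5.72e-04). Gata6 had 3.79 and 3.58 FPKM in AM580, 0.356 and 0.370 FPKM in Vc and 1.58 and 1.72 FPKM in V580 (interaction -0.81 ± 0.13, adjusted p = 0.0347). In both the V580 libraries lay well below the AM580 libraries. Hoxb8 (interaction -0.66 ± 0.09, adjusted p = 0.0327) and Axin2 (interaction -0.64 ± 0.10, adjusted p = 0.0347) were the other two.

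The calls moved with the libraries and the fit. None of the 4 passed when only the 8 libraries at 24 h were fitted (adjusted p from 0.102 to 0.155). Of the 4, Lefty1 alone passed without V580 replicate 1, without V580 replicate 2 and without Con replicate 2, where the counts over all genes were 1, 1 and 2, and the count was 5 without Con replicate 1. With limma-voom on recovered fragments 1 gene passed, Axin2, and Lefty1 did not (interaction -0.47).

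**Figure D4:**
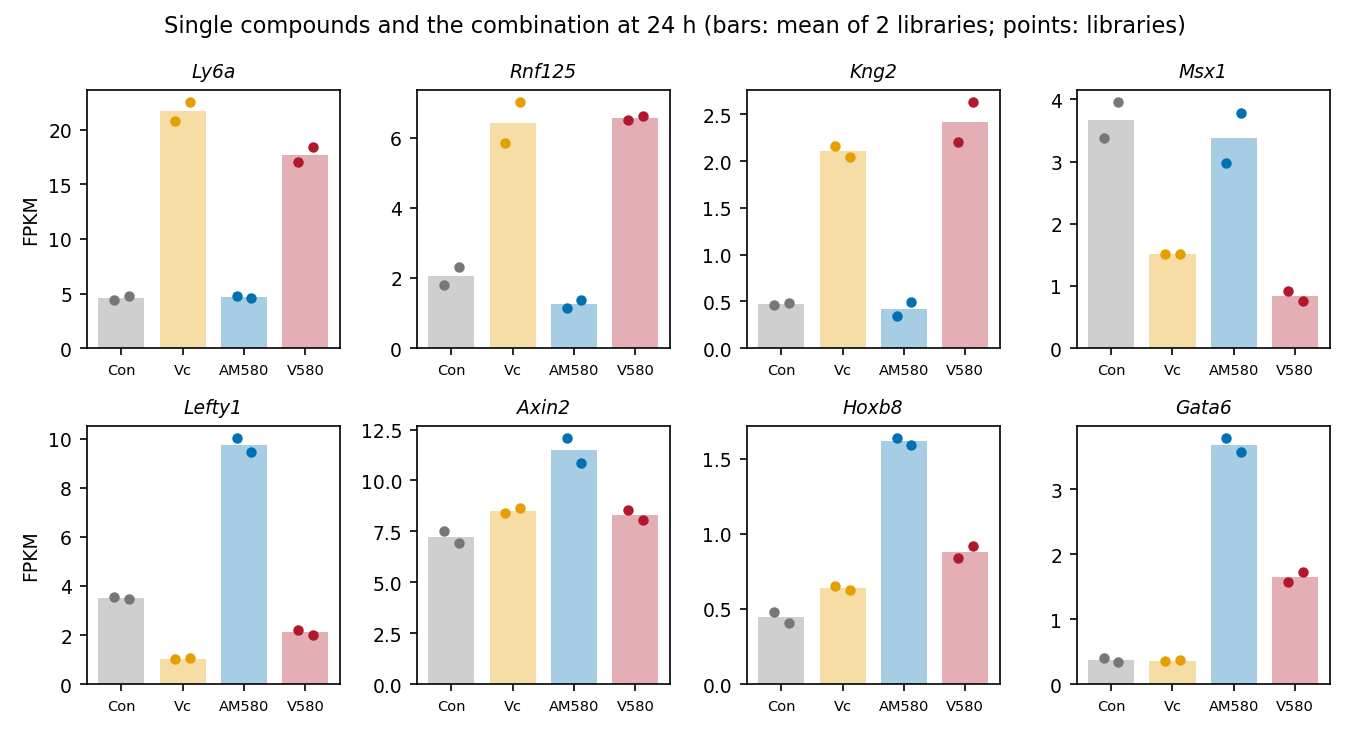
Level in FPKM (vertical axes from 0) of 8 genes in the 2 libraries each of Con, Vc, AM580 and V580 at 24 h; bars are means of 2 libraries and points are libraries. Ly6a, Rnf125 and Kng2 are high in Vc and V580 and low in Con and AM580, Msx1 is low in Vc and V580, and Lefty1, Axin2, Hoxb8 and Gata6 are higher in AM580 than in V580.

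The same comparison at 48 h used other libraries, 2 of V580 and 2 of Con at that time, and held many more changes. V580 differed from Con at 2-fold in 339 genes at 48 h (3.18%), and without the fold threshold in 6078 (57.1%). Of the 50 genes 2-fold higher at 24 h, 47 were also higher at 48 h by adjusted p, where 25.9% of all genes were, and 3 were not called, namely Ly6a, Kng2 and Rnf125. Of the 24 that were lower, 20 were also lower at 48 h, where 31.2% of all genes were. Crct1, Lrrn2 and Nog were not called, and Msx1 turned.

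The size of the effect differed between the times for 3612 genes (33.9%), 1681 with a higher (15.8%) and 1931 with a lower (18.1%) V580 minus Con value at 48 h. The direction of that split rests on the processing, since limma-voom on recovered fragments gave 2213 higher and 1395 lower. Cyp26a1 had 1.05 and 0.670 FPKM in Con and 119 and 123 FPKM in V580 at 48 h (48 h minus 24 h log2 difference 4.04 ± 0.13, adjusted p = 1.28e-11). Hoxb4 had 0.863 and 0.870 FPKM in Con and 57.4 and 66.9 FPKM in V580 at 48 h (48 h minus 24 h log2 difference 4.02 ± 0.12, adjusted p = 1.00e-11). Hoxb9 and Zfp703, a zinc-finger target of retinoic acid, were not called at 24 h and were at 31.9 and 35.9 FPKM and 29.1 and 33.8 FPKM in V580 at 48 h, with differences between the times of 4.46 ± 0.15 and 4.32 ± 0.12.

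Some falls also grew. Mycn was at 3.94 and 3.14 FPKM in V580 at 48 h against 63.9 and 67.1 FPKM in Con (48 h minus 24 h log2 difference -2.21 ± 0.09, adjusted p = 1.84e-10). Foxd3, a factor of the exit from the naive state, fell from 43.6 and 44.6 FPKM to 25.7 and 27 FPKM at 24 h and from 27.1 and 30.4 FPKM to 1.48 and 1.04 FPKM at 48 h (48 h minus 24 h log2 difference -3.00 ± 0.12, adjusted p = 2.92e-10). Sema6a, a semaphorin, was at 2.25 and 2.28 FPKM in Con at 24 h and 19.3 and 19.4 FPKM at 48 h, and stayed under 1 FPKM in V580 at both times. Ifitm1, an interferon-induced membrane protein, and Has2, a hyaluronan synthase, were the others of the 5 most negative genes, with differences between the times of -2.31 ± 0.15 and -2.08 ± 0.13.

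Other differences of 24 h were smaller at 48 h. Aqp3 was at 1.07 and 0.928 FPKM in V580 at 48 h against 0.523 and 0.519 FPKM in Con. Nanog was at 17.4 and 17.2 FPKM in V580 and 18.1 and 17.7 FPKM in Con at 48 h, a log2 difference of -0.05 ± 0.05 beside 0.58 at 24 h. Msx1, lower in V580 at 24 h, was higher at 48 h, with 1.59 and 1.5 FPKM in Con and 5.12 and 6.08 FPKM in V580 (log2 difference 1.37 ± 0.10, adjusted p = 2.33e-08). Pou5f1, by contrast, was at 189 and 185 FPKM in V580 and 451 and 461 FPKM in Con at 48 h (log2 difference -1.28 ± 0.05, adjusted p = 7.14e-11), and Gata4 was at 2.65 and 2.05 FPKM and 0.863 and 0.742 FPKM (log2 difference 0.89 ± 0.10, adjusted p = 4.23e-06).

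**Figure D5:**
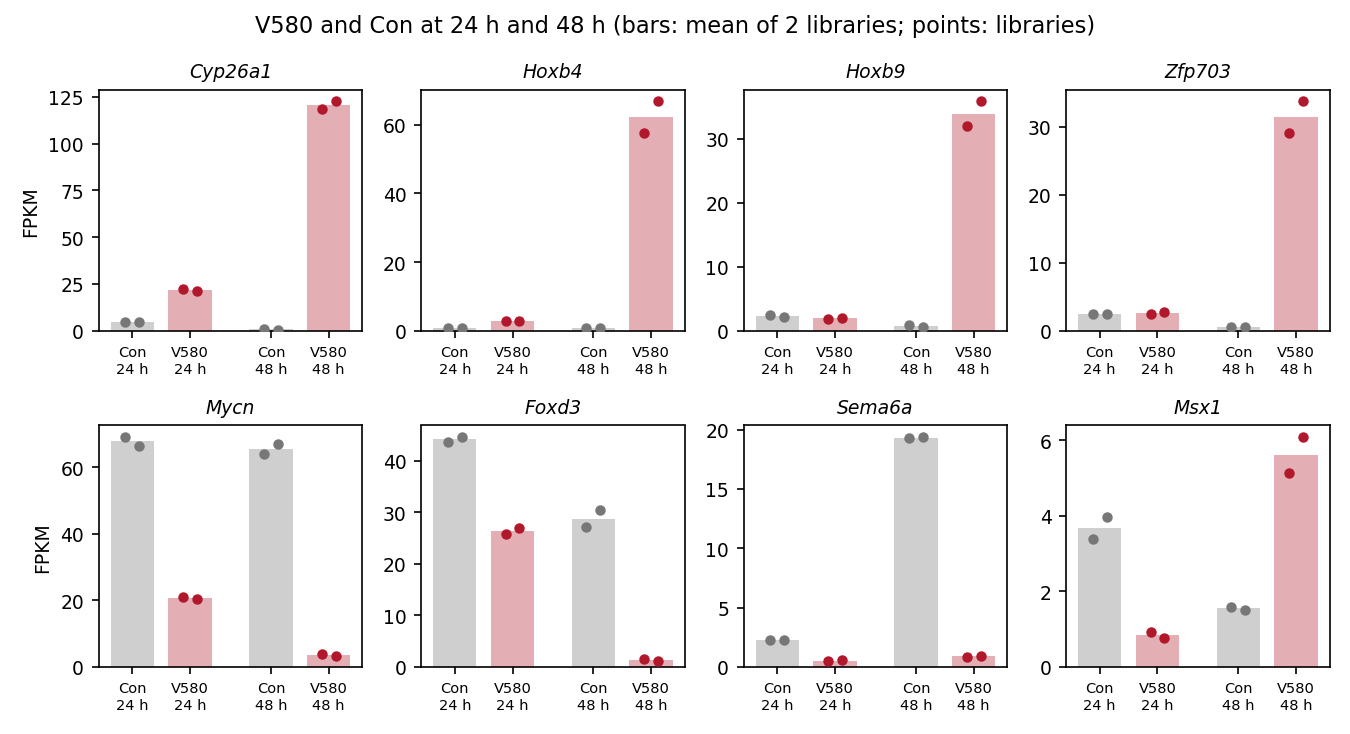
Level in FPKM (vertical axes from 0) of 8 genes in the 2 libraries each of Con and V580 at 24 h and at 48 h; bars are means of 2 libraries and points are libraries. Cyp26a1 and Hoxb4 are up at both times and far higher at 48 h, Hoxb9 is below Con in V580 at 24 h (a difference that did not pass the test) and above it at 48 h, Zfp703 overlaps between the groups at 24 h and is higher in V580 at 48 h, Mycn, Foxd3 and Sema6a are lower in V580 at both times, and Msx1 changes side.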

How the data were processed

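The authors deposited 1 table of FPKM values, in which 31 of its columns were matched to samples by name. Per the labels, the submitters' notes name Trim Galore, FastQC, HISAT2, SAMtools, featureCounts and RSEM with the mm10 build. Which tool gave the FPKM, and with which settings, is not given in the sources used here. The analysis used log2(FPKM + 1) of the 16 libraries of Con, Vc, AM580 and V580 at 24 h and 48 h, 2 a group. Genes with at least 1 FPKM in at least 2 of the 16 were kept (10644 of 13682). Groups were compared with limma 3.58.1 in R 4.3.3 with a mean trend and Benjamini-Hochberg adjustment over all genes tested. The script was tested on simulated data, with normal noise of the spread that the same fit estimated and changes added on the log2(FPKM + 1) scale. It recovered 100% of 70 genes changed 1.5-fold on that scale. Its 10 false calls were 4.76% of its calls over all sizes of change. Far fewer genes were changed than were called in the real data. Such data check the script and cannot show whether the model suits these libraries. The study's own test was made on read counts with DESeq2, and counts were not used here because the table holds FPKM.

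Low values were whole multiples of what 1 fragment is worth, so depth and fragments were recovered with GENCODE exon lengths, and 97.8% to 98.4% of values of 1 to 10 fragments in the 4 libraries were within 0.1 of a whole number. The depth of the 4 libraries, 18600000 to 22300000 fragments, limits genes under 1 FPKM most. Named genes were Gata4, Foxl2, Nanog, Pou5f1, Rarb and Cyp26a1, the 10 largest rises and falls of at least 5 FPKM without overlap, up to 4 called members of each list, and the 5 most positive and negative genes of the interaction and of the difference between times. Some genes that this rule or the lists hold are not reported here. Other members named within a list were chosen after their values were seen. The members and lists were chosen with earlier results of these data known. Alternatives were other offsets, filters, scalings, sample sets, a replicate term, each library left out and limma-voom, the last added after seeing the data.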

Additional observations from a re-analysis of the deposited data

Results flagged for a closer look

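The tests of a difference between effects gave these results. On the log2 scale V580 minus Con lay below the sum of the effects of Vc and AM580 alone in 4 genes. The interaction was -0.64 for Axin2, -0.81 for Gata6, -0.66 for Hoxb8 and -0.65 for Lefty1. The other settings called Axin2 in 7 of 14, Gata6 in 3 of 13, Hoxb8 in 7 of 14 and Lefty1 in 12 of 14 cases.

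The effect of V580 differed between 48 h and 24 h in 3612 genes. The most positive differences among genes of at least 5 FPKM were 4.46 for Hoxb9, 4.32 for Zfp703, 4.04 for Cyp26a1, 4.02 for Hoxb4 and 3.93 for Hoxb8. The most negative were -3.00 for Foxd3, -2.33 for Sema6a, -2.31 for Ifitm1, -2.21 for Mycn and -2.08 for Has2. No library could be tested for standing apart within a group of 2.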

How the results depend on the processing

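No named gene that was called in the main fit or under the other setting changed direction between them. The direction of genes called in neither was not followed. The count for V580 against Con moved from 74 to 219 with an offset of 0.1, 126 with 0.5, 254 with limma-voom and 3086 without the fold threshold, against Vc from 39 to 129, 70, 159 and 1803, and against AM580 from 7 to 53, 14, 70 and 1570. With 1 library left out the first count was 76 to 79, the second 39 to 45 and the third 7 to 9, and all 74 genes kept an adjusted p below 0.05. The interaction count of 4 became 1 without the filter, 8 (2 higher, 6 lower) with a filter of 5 FPKM, 0 with the 8 libraries at 24 h, 1 with limma-voom, 7 (1 higher, 6 lower) with quantile normalization, 6 (2 higher, 4 lower) with median ratio scaling, and 1 to 5 with 1 library left out. Requiring an unadjusted p and 2-fold gave 196 genes for the difference between times. Calls within the lists stayed between 162 and 196, against 190. Of 112 named genes some lost a call when 1 library was left out, and some of the 74 genes then no longer reached 2-fold. Under another setting 9 crossed the adjusted p of 0.05, to or from a call, with the direction of the difference kept. The causes were not tested.

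The replicate numbers were not used as pairs: deviations of same-numbered V580 and Con libraries correlated at r = 0.082. Over the 28 pairs of groups r ran from -0.424 to 0.209, and 7 pairs exceeded 0.1. With the replicate block the count stayed at 74, 39 and 7, the interaction count became 1 and the count for the difference between times 3530. Low depth limits the genes under 1 FPKM.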
